A study of Mus musculus with 8 samples.

Results

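The genes described here are 31 genes that mark cells made in bone marrow and carried in blood: neutrophils and their precursors, red blood cells and their precursors, eosinophils and B cells. They were taken from a list of 32 symbols, and a gene entered when it had at least 10 reads in any library. The members were chosen by their measured levels in these libraries, and the list names the contralateral library of day 1 and the left library without injury as those with the highest levels. Levels in those libraries are therefore given as a description, with no test. Of the 32 symbols, Ahsp was not analysed here. The 31 members compare with 17389 genes that reach 10 reads in some library and with 53801 genes in the whole table. The members nearest to the threshold were Stfa2l1, with at most 15 reads in a library, Cd79a with at most 43 and Ms4a1 with at most 45.

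The tissue was the dorsal root ganglion of the mouse, which holds the cell bodies of sensory neurons with satellite glia, Schwann cells and vessels. Per the labels, male C57BL/6J mice had the left L4 spinal nerve tightly tied, and ganglia L3 to L5 of 3 mice were pooled for each library, so an injured-side library also contains ganglia whose own nerve was left intact. Libraries of the ligated side (injured) and the other side (contralateral) came from the same pools at days 1, 3 and 7, and left and right libraries of a pool labelled no injury completed the 8. The titles of the libraries without injury add WT, which no title of an operated library carries. There was 1 library of each side at each time. Totals ran from 20488115 to 21652688 reads. Atf3, a transcription factor that axotomised neurons switch on, was checked in counts per 1000000 reads (CPM). Injured libraries of days 1, 3 and 7 held 464, 629 and 618 CPM, contralateral libraries 126, 167 and 110 CPM, and those without injury 10.9 and 11.0 CPM. The pool labelled no injury did not match the labelled sex: Xist had 4931 and 4129 reads in its libraries and at most 3 reads in any operated library, while Kdm5d, on the Y chromosome, gave 0 reads in both and 13.1 to 16.7 CPM in operated libraries.

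Neutrophils are made in marrow in ordered steps. Promyelocytes make the proteins of the azurophil granules, myelocytes then make those of the specific and gelatinase granules, and the circulating cell carries chemokine and cytokine receptors with large stores of the S100A8 and S100A9 proteins. Maturing red cells fill with haemoglobin, build a membrane skeleton and lose their nucleus, yet reticulocytes in blood still hold globin RNA. Azurophil granule transcripts are mostly made before a neutrophil leaves the marrow, whereas globin and S100 transcripts also occur in circulating blood.

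The 4 azurophil granule members encode proteins packed by promyelocytes: neutrophil elastase (Elane), myeloperoxidase (Mpo), proteinase 3 (Prtn3) and cathepsin G (Ctsg). Prtn3 and Elane lie 3073 bases apart on chromosome 10. Their promoter windows are shown because the highest library of each gene exceeded every other by at least 10.1-fold. Each runs from 250 bases before to 50 bases after the RefSeq transcription start (GRCm38.p6), read 5′ to 3′ on the gene's strand, at chr10:79886062-79886361 (plus strand) for Elane, chr11:87793534-87793833 (plus) for Mpo, chr10:79879417-79879716 (plus) for Prtn3 and chr14:56102525-56102824 (minus) for Ctsg. Capitals mark GAGGAAG, a motif of the ETS family factor PU.1, searched on both strands.
Elane: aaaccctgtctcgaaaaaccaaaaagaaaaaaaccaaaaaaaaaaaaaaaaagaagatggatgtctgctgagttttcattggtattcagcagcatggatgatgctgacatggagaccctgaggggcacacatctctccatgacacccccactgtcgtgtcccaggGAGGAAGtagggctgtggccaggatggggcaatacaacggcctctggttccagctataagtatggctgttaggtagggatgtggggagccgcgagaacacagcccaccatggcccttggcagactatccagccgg
Mpo: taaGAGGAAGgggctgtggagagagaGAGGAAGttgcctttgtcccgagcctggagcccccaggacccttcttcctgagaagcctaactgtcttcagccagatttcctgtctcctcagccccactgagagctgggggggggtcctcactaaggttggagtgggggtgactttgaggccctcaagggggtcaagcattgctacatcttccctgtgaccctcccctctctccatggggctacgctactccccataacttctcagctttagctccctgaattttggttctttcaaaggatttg
Prtn3: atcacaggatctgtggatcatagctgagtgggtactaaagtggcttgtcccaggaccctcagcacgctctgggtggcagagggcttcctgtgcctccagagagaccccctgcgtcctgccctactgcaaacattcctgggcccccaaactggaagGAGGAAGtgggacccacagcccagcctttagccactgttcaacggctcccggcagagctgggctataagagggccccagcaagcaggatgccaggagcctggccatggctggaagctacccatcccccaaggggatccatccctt
Ctsg: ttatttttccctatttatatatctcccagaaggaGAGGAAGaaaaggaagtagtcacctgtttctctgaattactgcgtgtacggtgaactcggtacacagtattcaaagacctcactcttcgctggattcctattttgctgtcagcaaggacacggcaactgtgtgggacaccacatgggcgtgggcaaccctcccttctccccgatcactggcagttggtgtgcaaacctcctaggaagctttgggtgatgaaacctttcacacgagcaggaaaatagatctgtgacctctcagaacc
The motif occurs in all 4 windows, with 2 matches in Mpo, in 9 of the 17 neutrophil members and in 13.6% of all 32851 windows. TTNCNNAA, a C/EBP motif present in 40.7% of windows, occurs in 0 of the 4 and in 9 of the 17. A match describes letters in this window only.

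In the contralateral library of day 1 the azurophil granule members were far above every other library. For Elane the injured side had 0.0488, 0.473 and 0.426 CPM at days 1, 3 and 7. It was at 7.61, 0.187 and 0.235 CPM on the contralateral side, and at 0.482 and 0.462 CPM in the left and right libraries without injury. Mpo, in the same order, was at 0.39, 1.37 and 0.71 CPM, at 24.1, 0.561 and 1.51 CPM, and at 1.83 and 0.831 CPM. Both genes had 1 high library, the contralateral side of day 1, and the remaining 7 lay far below it. The exact 95% limits there were 6.48 to 8.87 CPM for Elane and 22.1 to 26.3 CPM for Mpo, and such limits cover counting error only. Prtn3 had 0.342, 0.851 and 0.947 CPM on the injured side, 10.8, 0.608 and 1.04 CPM on the contralateral side and 1.06 and 0.693 CPM without injury. Ctsg had 0.0976, 0.426 and 0.0947 CPM, 7.04, 0.234 and 0.141 CPM, and 0.241 and 0.0924 CPM. In the day 1 pool the contralateral level over the injured level was 156-fold for Elane, 72.2-fold for Ctsg, 61.7-fold for Mpo and 31.5-fold for Prtn3. Over the second highest library the ratio was 10.1 to 16.5-fold. The left library without injury, which was high for later granule genes, was at 1.04-fold of the right for Elane and 2.20-fold for Mpo.

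Among the genes of the specific and gelatinase granules, both libraries named by the list were high. Camp, the antimicrobial cathelicidin, was at 0.927, 5.49 and 4.02 CPM on the injured side, at 22.0, 2.62 and 4.28 CPM on the contralateral side, and at 16.2 and 3.69 CPM without injury. Ltf, the iron-binding lactoferrin, was at 1.56, 10.5 and 8.10 CPM, at 35.7, 5.47 and 6.50 CPM, and at 33.1 and 7.90 CPM. For Ltf the day 1 contralateral library (95% limits 33.2 to 38.4 CPM) and the left library without injury (30.7 to 35.7 CPM) overlapped. Ngp, a granule protein of the cathelicidin family, was at 2.00, 15.5 and 11.4 CPM, at 64.7, 8.88 and 11.3 CPM, and at 35.5 and 11.5 CPM. Mmp8, the neutrophil collagenase, was at 0.781, 2.70 and 3.36 CPM, at 11.2, 1.64 and 3.15 CPM, and at 8.29 and 2.03 CPM. For all 4 genes contralateral day 1 was highest, the left library without injury next and injured day 1 lowest. Lcn2, an iron-siderophore binding protein that tissue cells also make after injury, was the exception: its injured day 1 level of 10.7 CPM was above the 9.51 and 7.24 CPM of days 3 and 7. Its contralateral levels were 49.0, 4.21 and 6.35 CPM, and those without injury 15.9 and 4.57 CPM. Summed over the 5 genes, the day 1 contralateral library held 183 CPM against 16.0 CPM on the injured side (11.4-fold), and the left library without injury held 109 against 29.6 CPM on the right (3.68-fold).

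**Figure D1:**
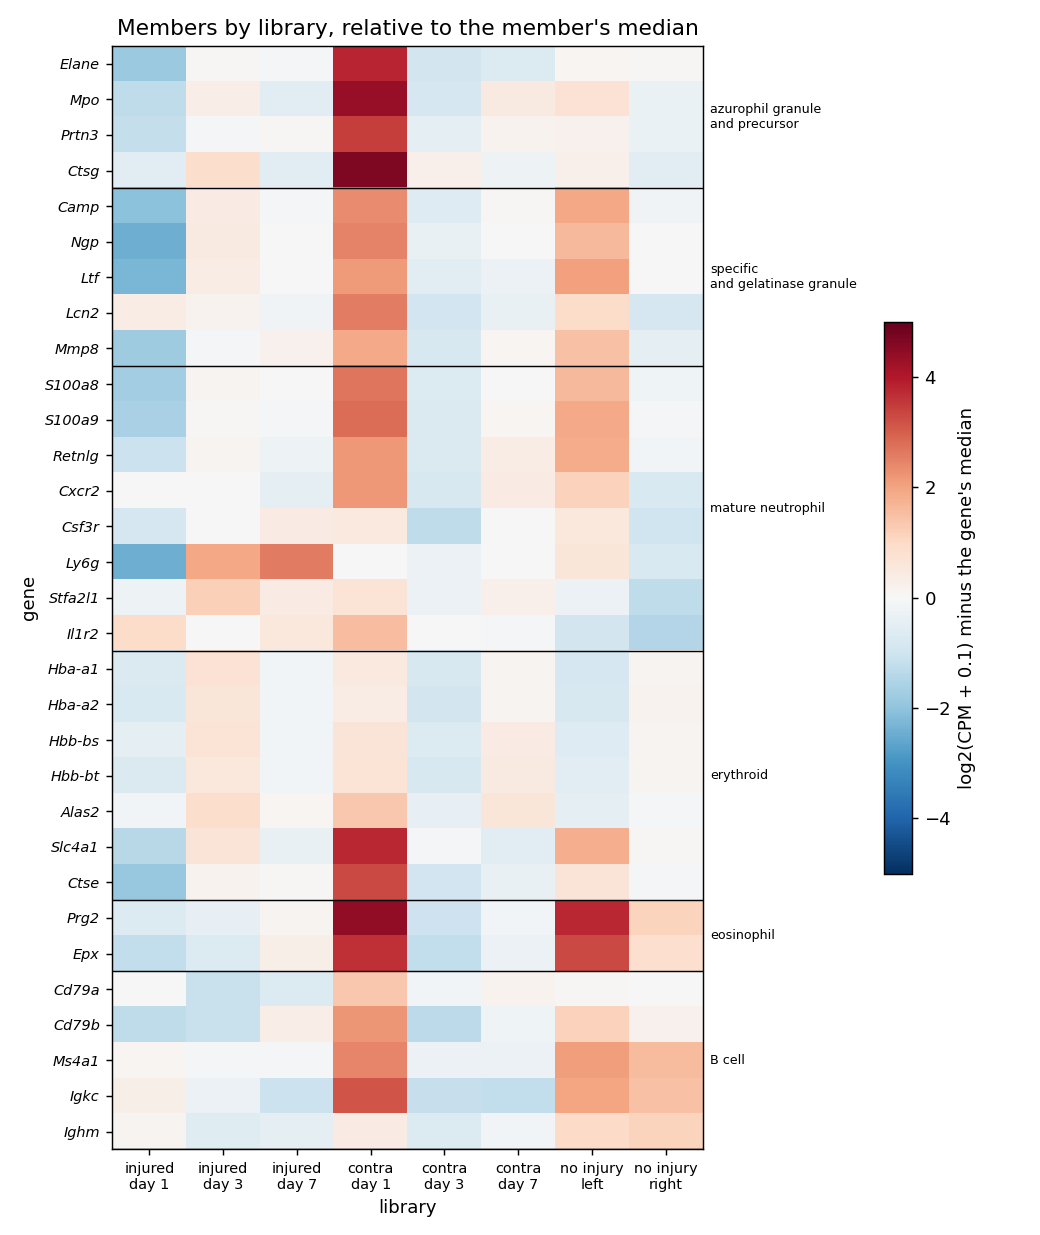
Level of the 31 members (rows) in the 8 libraries (columns), as log2(CPM + 0.1) minus the gene's median over the libraries, with colours ending at 5 in either direction. The contralateral day 1 column is high for nearly every class, the left column without injury is high for specific granule and eosinophil genes and for most mature neutrophil genes (not Il1r2 or Stfa2l1), and Ly6g is high on the injured side at days 3 and 7.

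The mature neutrophil members divided in how they varied. S100a9, a calcium-binding alarmin subunit, was at 9.62, 31.4 and 27.8 CPM on the injured side, at 211, 18.1 and 32.2 CPM on the contralateral side, and at 112 and 28.7 CPM without injury. Its partner S100a8 was at 5.52, 20.7 and 19.3 CPM, at 120, 11.7 and 18.5 CPM, and at 58.8 and 16.4 CPM. The subunits moved together: S100a9 made up 59.1% to 65.5% of their joint reads in every library. Retnlg, a resistin-like secreted protein, was at 1.71, 4.11 and 3.12 CPM, at 17.0, 2.24 and 4.94 CPM, and at 14.0 and 3.42 CPM. Cxcr2, the receptor for neutrophil chemokines, was at 1.12, 1.18 and 0.805 CPM, at 5.45, 0.608 and 1.55 CPM, and at 2.70 and 0.647 CPM. Both had the same high pair of libraries, with a day 1 ratio of 9.98-fold for Retnlg and 4.85-fold for Cxcr2. For Csf3r, the G-CSF receptor, that ratio was 2.63-fold. Csf3r was at 1.66, 3.03 and 4.12 CPM, at 4.37, 1.22 and 3.11 CPM, and at 4.53 and 1.48 CPM. Its highest measured level was in the left library without injury (95% limits 3.66 to 5.55 CPM). Those limits overlapped with contralateral day 1 (3.52 to 5.35 CPM) and injured day 7 (3.30 to 5.08 CPM). Il1r2, a decoy receptor for interleukin 1, was at 2.88, 1.47 and 2.13 CPM, at 4.46, 1.45 and 1.41 CPM, and at 0.723 and 0.462 CPM. Stfa2l1, a stefin-like protease inhibitor, had between 1 and 15 reads in each library, too few to order them.

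Ly6g, the surface antigen used to identify mouse neutrophils, followed another pattern. Its reads numbered 1, 63 and 100 in the injured libraries of days 1, 3 and 7, 15, 12 and 15 reads on the contralateral side, and 23 and 8 reads without injury. That is 0.0488, 2.98 and 4.73 CPM, 0.704, 0.561 and 0.706 CPM, and 1.11 and 0.369 CPM. The injured libraries of days 3 and 7 were the highest, and the contralateral library of day 1 was not raised. Of the joint reads of Ly6g and S100a9, Ly6g made up 8.67% (exact 95% limits 6.72 to 11.0) and 14.5% (12.0 to 17.4) in the injured libraries of days 3 and 7. In the other 6 libraries its share lay between 0.333% and 3.00%. Ly6g belongs to a family of similar genes on chromosome 15, and the counting of reads shared by several genes is not stated in the labels.

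**Figure D2:**
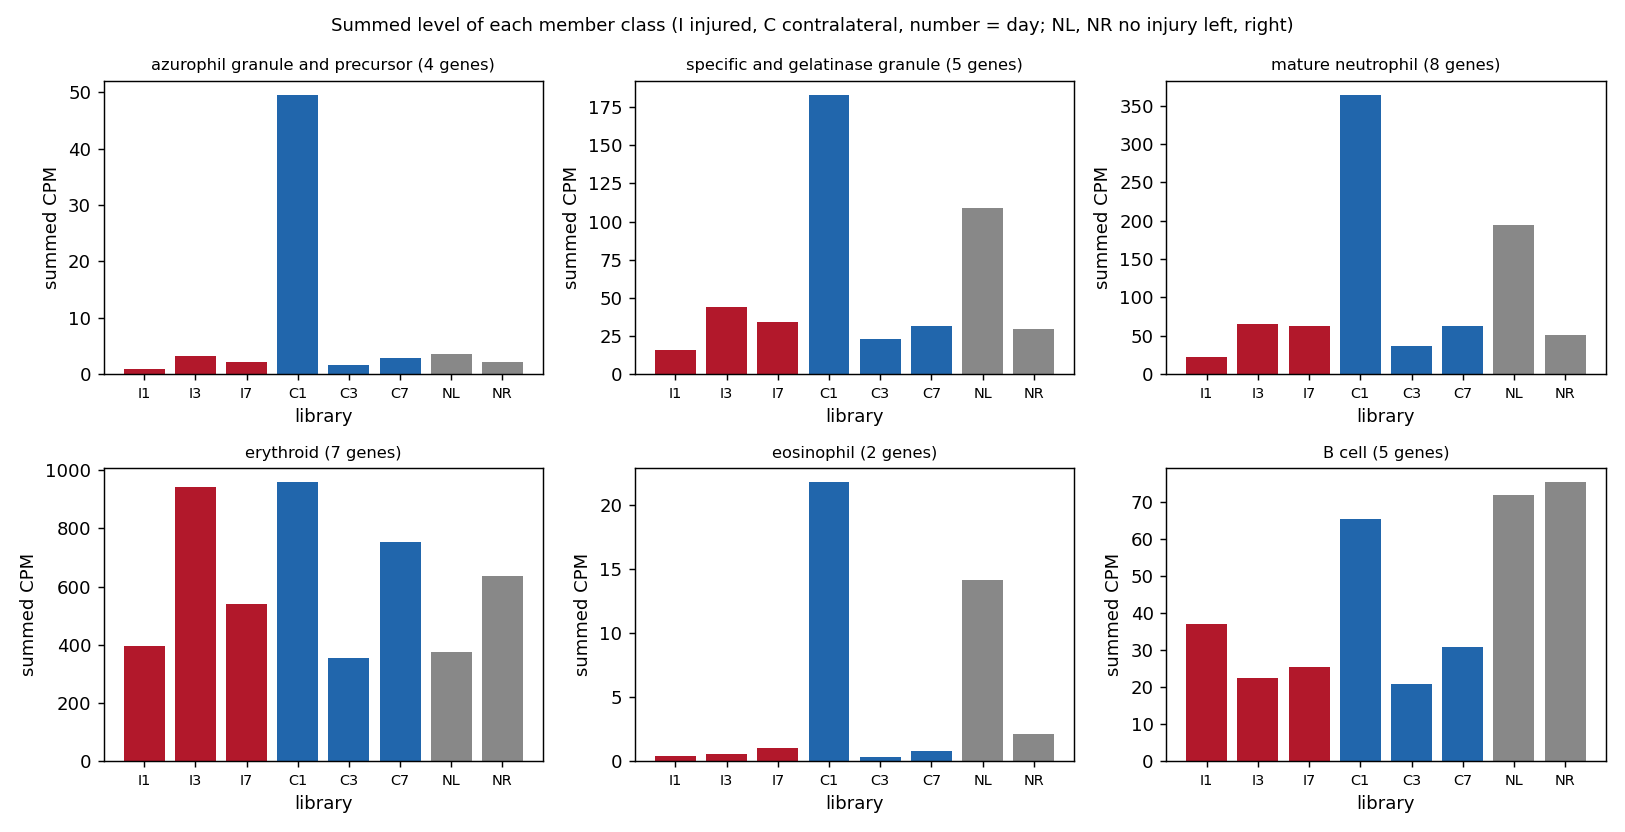
Summed CPM of the members of each class (6 panels, each with its own axis from 0) in the 8 libraries. Azurophil granule genes show 1 tall bar at 49.5 CPM in the contralateral day 1 library, the later granule, mature neutrophil and eosinophil genes show a second in the left library without injury, and the erythroid sum varies over several libraries.

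Erythroid members split into globin genes, which varied over all pools, and Slc4a1 and Ctse, which were highest by far in contralateral day 1. Hbb-bs, an adult beta globin, had 252, 577 and 326 CPM on the injured side, 557, 221 and 474 CPM on the contralateral side and 224 and 386 CPM without injury. Its promoter window (chr7:103827879-103828178, minus strand, same build and layout) is shown as the contrast to those above, with 2 matches in capitals. AGATAA, which erythroid factors such as GATA1 bind, is found in 11.2% of windows. The other, CCACACCC, which KLF factors of red cells bind, is found in 3.56%.
Hbb-bs: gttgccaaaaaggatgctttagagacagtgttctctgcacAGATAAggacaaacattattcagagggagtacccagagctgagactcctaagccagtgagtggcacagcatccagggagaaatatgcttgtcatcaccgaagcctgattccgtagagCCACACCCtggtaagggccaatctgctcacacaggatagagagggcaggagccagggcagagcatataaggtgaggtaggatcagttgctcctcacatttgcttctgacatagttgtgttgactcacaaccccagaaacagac
Of the 5 erythroid members with a window, AGATAA was in Alas2 and Hbb-bs, and TGATAA, found in 9.05% of windows, was in Hba-a1 and Hba-a2. CCACACCC, whose letters also satisfy the looser CCNCNCCC (49.5% of windows), was in Hbb-bs alone of the 5.

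Summed over Hba-a1, Hba-a2, Hbb-bs and Hbb-bt, globin reads made 375, 896 and 512 CPM on the injured side, 851, 336 and 717 CPM on the contralateral side, and 347 and 612 CPM without injury. The highest and second highest libraries, injured day 3 and contralateral day 1, were close, and at day 3 and day 7 the higher side was not the same. Hba-a1 made up 60.2% to 63.2% of the alpha globin reads and Hbb-bs 83.5% to 86.6% of the beta globin reads across libraries; the copies of each pair are near-identical, so this split depends on how shared reads were counted. Alas2, the erythroid enzyme that starts haem synthesis, was at 20.3, 41.1 and 23.7 CPM, at 56.6, 16.6 and 33.8 CPM, and at 16.4 and 20.7 CPM, with contralateral day 1 highest and injured day 3 next. Slc4a1, the band 3 anion exchanger of the red cell membrane, was at 1.07, 4.63 and 2.27 CPM, at 41.7, 2.81 and 1.93 CPM, and at 10.6 and 3.09 CPM. Ctse, an aspartic protease made by erythroblasts, was at 0.146, 0.946 and 0.852 CPM, at 8.97, 0.374 and 0.612 CPM, and at 1.35 and 0.785 CPM. Over the 8 libraries the log2 profile of Ctse correlated with the azurophil mean by r = 0.975, that of Slc4a1 by r = 0.912, that of Alas2 by r = 0.74 and those of the globin genes by 0.449 to 0.601. These correlations describe 8 libraries of shared tissue and pools, and contralateral day 1, on which the members were chosen, is one of the points. Of the joint reads of Alas2 and Hbb-bs, Alas2 held 9.22% in contralateral day 1 and 5.09% to 7.44% elsewhere. Of the joint reads of Slc4a1 and Hbb-bs, Slc4a1 held 6.96% in contralateral day 1 and 4.53% in the left library without injury. In the other 6 libraries it held 0.405% to 1.25%.

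**Figure D3:**
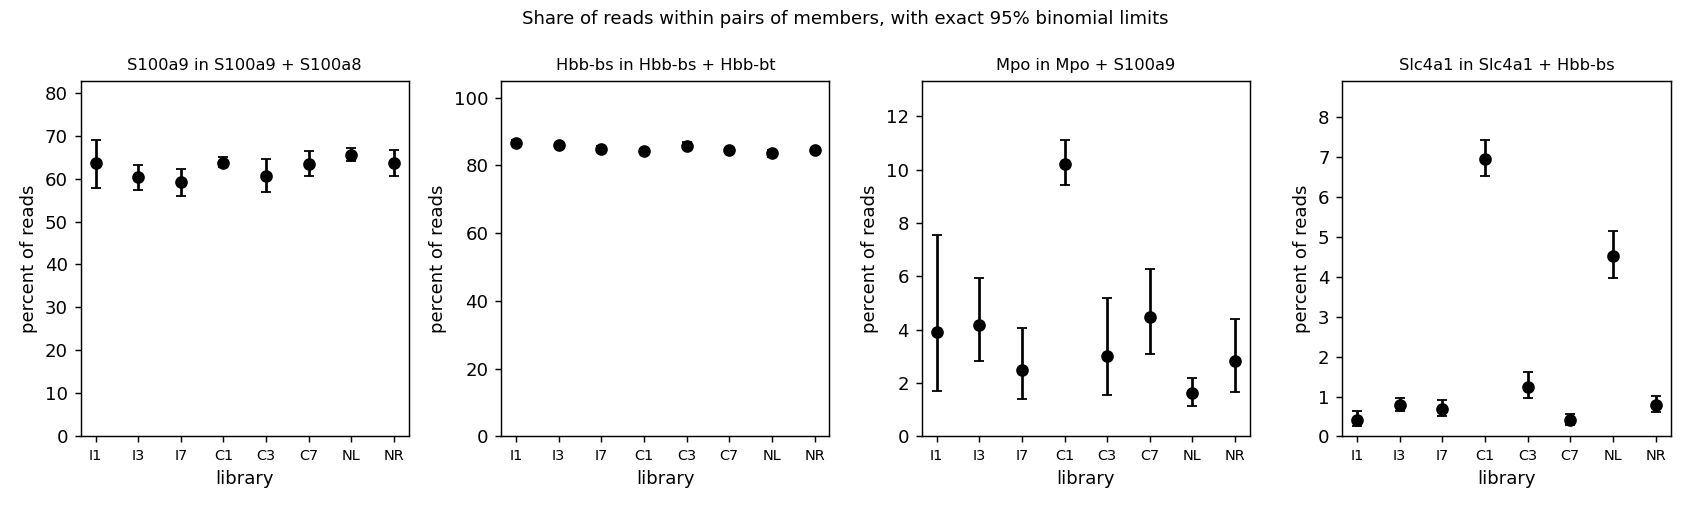
Share of joint reads held by the first gene of 4 pairs, by library (I injured, C contralateral, with the day; NL and NR left and right without injury), with exact 95% limits that cover counting error only. The S100a9 and Hbb-bs shares keep narrow ranges, the Mpo share reaches 10.2% in contralateral day 1 against 1.61% to 4.48% elsewhere, and the Slc4a1 share is high in that library and in the left one without injury.

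Eosinophil members were high in contralateral day 1 and in the left library without injury, and most B cell members were highest in the first of these. Prg2, the major basic protein of eosinophil granules, was at 0.439, 0.568 and 0.852 CPM on the injured side, at 18.9, 0.327 and 0.706 CPM on the contralateral side, and at 12.0 and 1.80 CPM without injury. Epx, eosinophil peroxidase, lies 59587 bases from Mpo on chromosome 11 and had 0 reads in injured day 1 and contralateral day 3. Its other levels were 0.0473 and 0.189 CPM in the injured libraries of days 3 and 7, 2.91 and 0.0941 CPM in the contralateral libraries of days 1 and 7, and 2.22 and 0.323 CPM without injury. Against the 3 reads (0.146 CPM) that a count of 0 allows in that library, Epx was at least 19.9-fold higher in contralateral day 1 than on the injured side. Prg2 was 43.1-fold higher there, and 6.66-fold higher on the left than on the right without injury.

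Of the B cell members, Igkc, the kappa light chain constant region, was at 2.10, 1.37 and 0.757 CPM, at 15.9, 0.701 and 0.659 CPM, and at 6.89 and 4.80 CPM. Cd79b, a chain of the B cell receptor, was at 0.244, 0.284 and 0.947 CPM, at 3.80, 0.234 and 0.612 CPM, and at 1.74 and 0.877 CPM. Ms4a1, which encodes CD20, was at 0.342, 0.284 and 0.284 CPM, at 2.11, 0.234 and 0.235 CPM, and at 1.64 and 1.15 CPM. Each of these had its highest level in contralateral day 1 and its next highest in the left library without injury. The left was above the right by 1.44-fold for Igkc, 1.98-fold for Cd79b and 1.42-fold for Ms4a1 (34 against 25 reads, with overlapping limits). Those differences were smaller than for the eosinophil members. Cd79a, the other receptor chain, had 0.732, 0.284 and 0.426 CPM, 2.02, 0.655 and 0.847 CPM, and 0.771 and 0.739 CPM. Ighm, the mu heavy chain constant region, did not follow: it was at 33.8, 20.3 and 23.0 CPM, at 41.7, 19.2 and 28.6 CPM, and at 60.9 and 67.8 CPM. In bulk RNA, fewer cells of a type and less RNA per cell cannot be told apart, and this holds for all these levels.

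Counted over members, contralateral day 1 was the highest of the 8 libraries for 24 of 31, where 11.9% of all genes with 10 reads peaked in that library. The left library without injury was highest for 1 member, Csf3r, where 16.1% of all genes peaked there. For the others the highest library was injured day 3 (Stfa2l1, Hba-a1, Hba-a2 and Hbb-bs), injured day 7 (Ly6g) or the right library without injury (Ighm), so the highest measured level of these 6 was in a library that the list does not name. For Stfa2l1 (15 against 10 reads), for Csf3r (94 against 93 reads) and for Hbb-bs (95% limits 567 to 588 against 547 to 568 CPM) the limits overlapped those of contralateral day 1. Within the day 1 pool, 25 of the 27 members with 50 reads in the higher library were at least 2-fold higher on the contralateral side and 0 were at least 2-fold lower, with a median log2 ratio of 3.69. Over all 13276 such genes 1.6% were at least 2-fold higher and the median was 0.01. Il1r2 (1.55-fold) and Ighm (1.23-fold) were the exceptions. Within the pool without injury, 12 of 19 members were at least 2-fold higher on the left and 0 were at least 2-fold lower, with a median of 1.75. The globin genes, Alas2 and Ighm were lower on the left by less than 2-fold, at 0.509-fold (Hba-a1) to 0.899-fold (Ighm) of the right. In that pool 0.409% of 13192 genes were at least 2-fold higher and the median was 0.02. The list was drawn from these libraries, so nothing further is read from these shares. Among all 13276 genes, Elane, Mpo, Ctse, Ctsg, Slc4a1, Prg2, Epx and Ngp ranked 1 to 8 by the day 1 ratio, computed with a prior count of 2. With Epx at its lower bound the members' median stayed at 3.69.

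**Figure D4:**
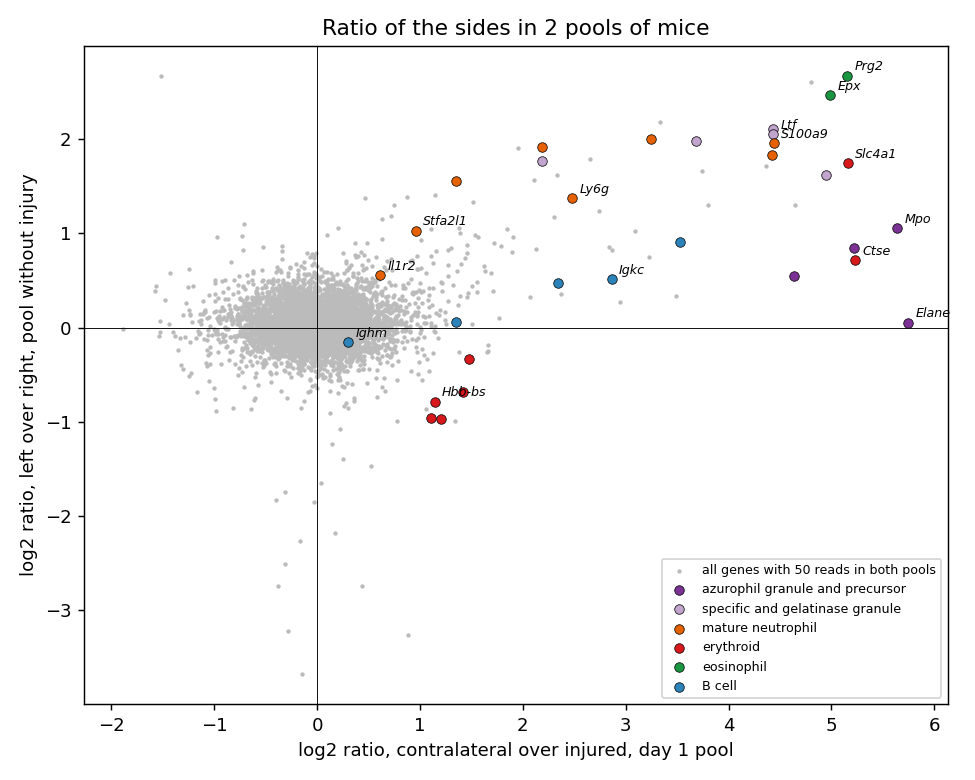
Each point is a gene: the horizontal axis is the log2 ratio of contralateral over injured in the day 1 pool and the vertical axis that of left over right in the pool without injury, for genes with 50 reads in both pools (grey) and all 31 members (coloured by class). Specific granule and eosinophil members and most mature neutrophil members are high on both axes, Il1r2 is under 2-fold on both, azurophil members are high on the horizontal axis, and globin genes lie to the right and below 0.

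Genes outside the member list, from lists chosen with earlier results known, were compared between contralateral and injured day 1 as a description only. In contralateral day 1, 12 of 20 erythroid genes with 50 reads were at least 2-fold higher (median log2 3.02). So were 5 of 5 specific granule genes (2.74) and 3 of 3 azurophil and precursor genes (1.77). Among B cell genes 3 of 5 passed (1.56), and among cell cycle genes 10 of 14 (2.74). Over all 13276 genes the share was 1.6%. With the 50-read minimum a gene can enter through contralateral day 1 alone, as Gata1 did (51 against 3 reads). Of the 3 azurophil and precursor genes, Igsf6 was highest in injured day 7 and Clec12a in injured day 3. Lyz2, among the 5 specific granule genes, was highest in injured day 7 (144 CPM), with 75.6 CPM in contralateral day 1 and 33.8 CPM in injured day 1. Mki67, a proliferation marker, was at 2.49, 15.8 and 8.95 CPM on the injured side, at 21.9, 3.41 and 5.84 CPM on the contralateral side, and at 9.69 and 4.71 CPM without injury. Top2a, Ccna2 and Tpx2 were instead highest in injured day 3, at 13.6, 8.99 and 9.88 CPM. In contralateral day 1 they were at 9.02, 7.42 and 8.12 CPM. Of 16 cell cycle genes, 5 were highest in contralateral day 1, where 11.9% of all genes with 10 reads peaked. The list summed to 96.5 CPM in injured day 3 and 90.4 CPM in contralateral day 1. The 12 non-members whose log2 profile was most like the azurophil mean, with Pearson's r of 0.951 to 0.985 over 8 libraries, included the erythroid genes Rhd, Rhag, Gata1, Kel, Ermap and Hemgn, and also Mmp13, Btnl10, Ifitm6 and Dcun1d1. They were picked for this r, and contralateral day 1, on which the members were chosen, is one of the points. Dcun1d1 had r = 0.951 with 23.8 CPM in that library and 18.3 to 19.8 CPM elsewhere, so a high r can go with a small difference. High day 1 log2 ratios outside the list included those of Hemgn (4.87), Ear6 (with 0 reads in injured day 1, so no value is given), Apol11b (4.60), Mmp13 (4.40) and Cd177 (4.37). At the other end were, among others, Gm29266 (-2.48), Crocc2 (-2.32), Ucn2 (-2.32), Areg (-2.16) and Arg1 (-1.95). Sensory neuron and glial genes were not higher: 0 of 15 and 0 of 12 passed 2-fold, and the neuron list summed to 24100 CPM in injured and 25400 CPM in contralateral day 1. Macrophage genes (11 with 50 reads) gave 1 at least 2-fold higher and a median of 0.02. At least 2-fold higher were also 4 of 5 mature neutrophil, 2 of 4 eosinophil, basophil and mast cell, 2 of 8 platelet, 2 of 9 progenitor, 5 of 11 monocyte and 1 of 4 acute phase genes. The count was 0 of 2 for B cell precursor, 0 of 1 for T and NK cell, 0 of 7 for skeletal muscle and 0 of 4 for adipocyte genes. Of bone and cartilage genes, 1 of 6 osteoblast, 2 of 4 osteoclast and 0 of 5 cartilage genes passed. Some genes are counted in several lists. Hp (log2 1.14), the acute phase gene that passed, is also in the specific granule and monocyte lists. Chil3 (3.33) is in the specific granule and monocyte lists, and Mmp9 (2.74) in the specific granule and osteoclast lists.

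The right library without injury had high skeletal muscle genes, summing to 1780 CPM against 344 CPM on the left, where 12 of 15 were at least 2-fold lower. Whether cell types carried along with the ganglia account for a part of the members' levels in these pools was not tested.

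The pools of days 3 and 7, which the list does not name, allow a test of injured against contralateral over 4 libraries with the pool as a block. Of the 26 members with enough reads, Ly6g rose and no other member passed the threshold in either direction (edgeR's quasi-likelihood test, Benjamini-Hochberg adjustment at 0.05). Over all 16216 genes tested, 10.2% were called higher and 9.39% lower. Elane, Ctsg, Stfa2l1, Epx and Ms4a1 had too few reads for the fit. On the injured side Ly6g was 5.89-fold higher (log2 2.56 ± 0.30, SE, adjusted p = 0.00376 by edgeR), with log2 ratios of 2.23 at day 3 and 2.59 at day 7. Under 6 alternatives on the same 4 libraries its adjusted p lay between 1.52e-09 and 0.00573. By edgeR it was 0.401 when the day 1 pool was added, where it had 1 read on the injured side and 15 on the contralateral side (fitted log2 1.47). With 2 pools, 1 residual degree of freedom remained, so the error rests largely on the spread that edgeR shares across all genes.

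Unadjusted p was under 0.05 for Ltf, Lcn2, Csf3r and Cd79a as well as Ly6g. The first 3 had log2 values of 0.60 ± 0.19, 0.65 ± 0.25 and 0.77 ± 0.29 (SE), with adjusted p = 0.0727, 0.125 and 0.112 by edgeR. Cd79a had a log2 value of -1.10 ± 0.43 with an adjusted p of 0.12 by edgeR. Most of the 26 values were positive (23), with a median of 0.40 against 0.02 for all genes. With all 6 operated libraries 23 of 26 were negative and the median was -0.93, and with all 8 libraries 25 of 28 were negative and the median was -1.0. Both of these fits include contralateral day 1, on which the members were chosen. That choice favours negative values, so nothing is read from their signs. The members' ratios also differed between the pools of days 3 and 7. At day 3, 25 of 26 members were above 0 on the injured side, and at day 7, 13 were. Each day has 1 library a side and members of the same cells can vary together, so these are not counts of replicates. The share of all genes above 0 on each day is not given here. For Hba-a1 the log2 ratio was 1.51 at day 3 and -0.28 at day 7, and the fitted 0.58 ± 0.58 (SE) had an adjusted p of 0.561 by edgeR. Mpo had 1.16 and -0.99, with a fitted value of 0.02 ± 0.58 (SE). The remaining globin genes and Alas2 also had opposite signs at days 3 and 7.

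**Figure D5:**
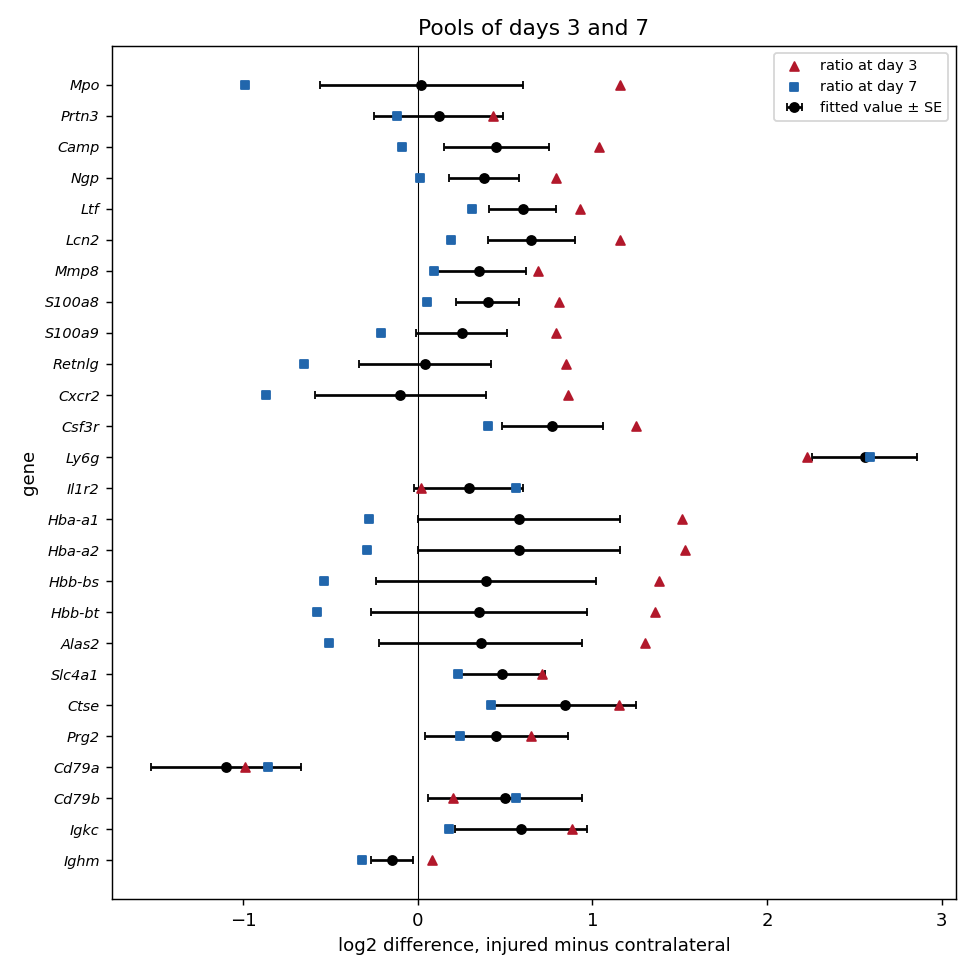
Fitted log2 ratio of injured over contralateral (circles, bars ± SE) for the 26 members tested in the pools of days 3 and 7, with the ratio in the day 3 pool (triangles) and in the day 7 pool (squares). Ly6g at 2.56 is the one member called, and for globin genes the triangles lie above 0 and the squares below it.

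Of 3 azurophil and precursor genes outside the list, Igsf6 was called higher (log2 1.17 ± 0.31, SE, adjusted p = 0.0447 by edgeR) and Ms4a3 lower (-0.98 ± 0.20, SE, adjusted p = 0.0209 by edgeR). Igsf6 was highest in injured day 7, unlike the azurophil members, which were highest in contralateral day 1. Hdc, which makes histamine in neutrophils and mast cells, was called higher at log2 0.92 ± 0.20 (SE; adjusted p = 0.0257 by edgeR), the 1 call among 12 mature neutrophil genes. Among 5 specific granule genes none was called. Over all genes tested, 10.2% were called higher and 9.39% lower, so 1 call among 12 is not read as a result about the list. Of 15 erythroid genes, Car1 (2.22 ± 0.22, SE) and Trim10 (1.21 ± 0.30, SE) were called higher and Sptb and Car2 lower. Car2 and Sptb are also expressed outside red cells. Genes called higher in these lists may likewise be expressed outside the named cells, so a call does not name a cell type. Of 6 B cell genes Cd37 (1.12) and Cd74 (0.55) were called higher, and of 7 platelet genes Pf4 (1.62), Itgb3 (0.57) and Gp1bb (0.81), with none lower in either list. The remaining B cell genes were not called, with positive values for Cd22 (1.13) and Pax5 (0.30) and negative ones for Jchain (-0.57) and Ebf1 (-0.22). Macrophage genes gave 11 calls among 14, all higher, with a median of 1.52, and their summed level was 386 and 372 CPM in the injured libraries of days 3 and 7 and 110 and 156 CPM in the contralateral ones. Cell cycle genes gave 7 calls among 16, all higher. The part of these lists in the Ly6g result was not tested.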

How the data were processed

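The authors deposited 1 table of whole-number read counts per Ensembl gene for 8 libraries, and all of its columns were used as deposited. Per the submitters' processing notes, the tools were STAR 2.5.4a, cutadapt 1.16, DESeq2 and featureCounts 1.6.3, named without their role, and the build was GRCm38. Those notes and the labels do not give the strand, multi-mapping or annotation settings. Names and positions came from GENCODE M21, which matched 53620 of 53801 IDs.

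The members and gene lists were chosen with earlier results of these data known. Levels are CPM of the library total, with exact Clopper-Pearson 95% limits. Ratios of 2 libraries used genes with 50 reads in the higher library, a prior count of 2 for log2 ratios and a 2-fold limit, with no test. Sides were tested with the quasi-likelihood F test of edgeR 4.0.16 under R 4.3.3 (TMM, filterByExpr minimum count 10, Benjamini-Hochberg at 0.05) on the pools of days 3 and 7 with the pool as a block, fitted over all genes. The series' design makes each mouse its own control, hence the block. The sides' deviations from their state means had correlations of 0.259 (day 1 pool), -0.0656 (day 3) and 0.359 (day 7).

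Named genes are the members, up to 4 non-members per list by highest CPM, the 12 non-members most like the azurophil mean in log2(CPM + 0.5), the 6 highest and 6 lowest day 1 ratios, and Atf3, Xist and Kdm5d. Car1, Trim10, Cd37 and Pf4 were chosen after their values were seen. Some genes that the rule names are not reported here. The 21 lists cover azurophil granule, specific granule, mature neutrophil, erythroid, B cell, B cell precursor, eosinophil with basophil and mast cell, platelet, progenitor, T and NK cell, monocyte, macrophage, cell cycle, osteoblast, osteoclast, cartilage, skeletal muscle, adipocyte, sensory neuron, glial and acute phase genes. Promoter windows came from RefSeq GRCm38.p6, and 24 members had one. Alternatives were other scaling factors, no filter, DESeq2 1.42.0, limma-voom (limma 3.58.1), no block, more pools, other prior counts and other read minimums. The test was run on simulated counts of 15993 genes: 60%, 86%, 98% and 100% of genes changed 1.5, 2, 4 and 8-fold were recovered, and 3 of 175 calls had no planted change. The simulation gave all genes the same dispersion and no difference between pools, and it left genes with low mean counts unchanged. These rates therefore cannot be carried over to members with few reads or a large spread between pools.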

Additional observations from a re-analysis of the deposited data

Results flagged for a closer look

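Summed over the 5 specific and gelatinase granule members, the log2 ratio of injured over contralateral was -3.52 at day 1, 0.94 at day 3 and 0.11 at day 7, negative at day 1 and above 0 later. The day 7 value rests on 720 against 670 reads, 1.08-fold. Summed over Prg2 and Epx, the eosinophil members, the day 1, 3 and 7 values were -5.64, 0.91 and 0.38. The later values come from 13 reads against 7 and 22 reads against 17. Each day has 1 library a side, and the difference between days was not tested. The day 1 contralateral library was one of those in view when the genes were chosen.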

How the results depend on the processing

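DESeq2 called 856 genes higher and 807 lower in the pools of days 3 and 7, against 1648 and 1523, and all 6 operated libraries gave 763 and 449. Members called higher numbered 4 without a filter (Ltf, Lcn2, Csf3r and Ly6g), 2 with no replicate block for the pairing of sides (Ltf and Ly6g), and 0 with all 6 or all 8 libraries. With all 8, 1 member was called lower (Cd79a, log2 -1.24, adjusted p = 0.0275 by edgeR). Cd79a was highest in contralateral day 1, which that fit includes and on which the members were chosen, so nothing is read from this call. Ly6g kept log2 values of 2.53 to 2.58, with adjusted p between 1.52e-09 and 0.00573, under the 6 alternatives on the same 4 libraries, and had 1.47 and 1.5 with all 6 and all 8 (adjusted p = 0.401 and 0.38). With all 6 and all 8 libraries, which add the pool used to choose the members, values turned negative for Ltf (-0.80 and -0.82), Lcn2 (-0.42 and -0.42), S100a8 (-1.01 and -1.02), Slc4a1 (-1.38 and -1.41), Ctse (-1.22 and -1.26), Hba-a1 (-0.01 and -0.01) and Mpo (-2.10 and -2.12). Without the block Mpo was at -0.01. Leaving out 1 pool gave values with no test. Genes at least 2-fold higher made up 3.47% of all genes with 10 reads and 0.436% with 200 reads in the day 1 pool, and 1.44% and 0.145% in the pool without injury. With 1 library per side and day, no day can be tested alone, and members under 50 reads have wide counting limits.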

Other observations

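Ppbp, a chemokine stored in platelet granules, was at 13.6 CPM in contralateral day 1 and 1.56 CPM in injured day 1, but at 0.241 and 0.185 CPM in the left and right libraries without injury. Ear6, an eosinophil-associated ribonuclease with close relatives, was at 2.54 CPM in contralateral day 1 and 2.46 CPM in the left library without injury. Chil3, a chitinase-like protein of neutrophils and macrophages, was at 41.7 CPM in contralateral day 1 and 9.79 CPM in that left library. Of 15 platelet genes outside the member list, 11 were highest in contralateral day 1 and 1 in the left library without injury. Of 13 eosinophil, basophil and mast cell genes with 10 reads, 5 were highest in the first of these and 3 in the second. Over all genes with 10 reads, 11.9% peaked in contralateral day 1 and 16.1% in the left library without injury. Ccr3, one of the 3, had 11 reads there against 10 in contralateral day 1, so nothing is read from that count.

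In the pools of days 3 and 7, Cma1, a mast cell chymase, was higher on the injured side by log2 1.75 ± 0.29 (SE; edgeR's quasi-likelihood adjusted p = 0.0101), at 2.13 and 3.83 CPM against 0.608 and 1.13 CPM. It was the 1 call among 5 eosinophil, basophil and mast cell genes outside the member list, where 10.2% of all genes were called higher.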
